A study of Mus musculus with 4 samples.

Results

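The matrix genes described here are Bcan, Ncan, Vcan, Acan, Cspg5, Ptprz1, Tnc, Tnr and Hapln1, which encode the neural matrix proteoglycans, the tenascins, their link protein and a receptor phosphatase. They were taken as a list of 9 gene symbols, and every probe set that the platform annotation gives to one of them was read. This gave 25 of the 45101 probe sets on the array, and 9 of 18193 genes. None of the 25 probe sets was shared with another gene.

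The arrays carried RNA from induced neural stem cells labelled with 14 factors (iNSC_14F) or with 13 factors (iNSC_13F), from primary-derived neural stem cells (NSC) and mouse embryonic fibroblasts (MEF), with 1 array for each. Induced cells of this kind have been turned from another lineage into neural stem-like cells with introduced genes. The title of the study names B lymphocytes and adult liver cells as the origin. The labels name no starting cells for either induced sample, so neither these origins nor another can be assigned to them. Which factors and how many clones lie behind each is not given either. The induced cells and NSC were kept in N2 medium with 20 ng/ml EGF, basic FGF and laminin, so both growth factors were common to these 3 samples, and the growth of the fibroblasts is not given. Neither strain nor age is given in the labels. With 1 array per group there was no replicate check, no test was possible, and no SD is printed.

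Lecticans are large proteoglycans that bind hyaluronan at one end and tenascins at the other, with chondroitin sulfate chains between. Link proteins hold lectican and hyaluronan together. In the nervous system this lattice fills the space around progenitors, glia and neurons, and it is known for shaping cell migration, axon growth and the nets around mature neurons. Ptprz1 is a receptor phosphatase made by radial glia and glial precursors that carries chondroitin sulfate itself and binds the growth factor pleiotrophin, contactins and tenascins.

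The promoters of Bcan and Ncan are shown because both genes were far higher on the neural arrays than on MEF, and that of Tnc because its main probe set went the other way between NSC and MEF. Each window runs from 250 bases before to 50 bases after a start site, 5′ to 3′ on the gene's strand, from RefSeq on GRCm38.p6. Capitals mark matches, on either strand, to 7 short motifs that are spelled out after the sequences.
Bcan, chr3:88000307-88000606, minus strand: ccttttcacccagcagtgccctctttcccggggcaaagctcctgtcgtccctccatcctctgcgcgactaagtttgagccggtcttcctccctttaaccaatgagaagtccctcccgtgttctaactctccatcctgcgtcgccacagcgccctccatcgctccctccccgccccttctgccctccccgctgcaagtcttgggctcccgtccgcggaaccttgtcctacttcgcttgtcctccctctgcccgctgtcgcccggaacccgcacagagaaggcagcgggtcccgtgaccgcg
Ncan, chr8:70120795-70121094, minus strand: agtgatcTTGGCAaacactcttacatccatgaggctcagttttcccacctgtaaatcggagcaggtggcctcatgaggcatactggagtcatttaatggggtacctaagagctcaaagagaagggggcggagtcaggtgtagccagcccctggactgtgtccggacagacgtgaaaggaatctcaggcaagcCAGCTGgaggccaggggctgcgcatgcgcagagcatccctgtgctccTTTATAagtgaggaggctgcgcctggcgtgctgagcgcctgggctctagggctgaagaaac
Tnc, chr4:64046887-64047186, minus strand: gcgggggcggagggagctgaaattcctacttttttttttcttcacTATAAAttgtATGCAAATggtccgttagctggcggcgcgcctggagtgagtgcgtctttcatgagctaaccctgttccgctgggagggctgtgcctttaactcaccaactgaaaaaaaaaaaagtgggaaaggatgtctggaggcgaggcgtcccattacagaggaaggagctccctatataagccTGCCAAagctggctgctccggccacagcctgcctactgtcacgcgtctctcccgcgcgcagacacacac
The Bcan window held 0 matches, against 3 in Ncan and 3 in this window of Tnc, and no matches overlapped. Tnc has 2 windows, and the one with more matches is shown. Its other window held 2 matches, without TTGGCA. The part of the nuclear factor I site searched was TTGGCA, which 14.1% of all 32851 promoter windows held, and it was in both Ncan and Tnc. TATAAA, the string searched as a TATA box, was in 13.6% of windows and also in both. Relative to the start site it lay at -11 in Ncan, on the opposite strand, and at -205 in this Tnc window. Only this exact string was searched, so variants such as the tatataa shortly before TGCCAA in the printed Tnc window were not counted. Whether any of them works as a TATA box was not tested. The first E-box searched, CAGCTG, was in 16.3% of windows and, among these genes, in Ncan and Acan. The octamer, ATGCAAAT, was in 1.74% of windows and in Tnc. The SOX motif AACAAAG was in 5.85% of all windows and in 0 windows of these genes. Its variant AACAATG was in 3.78%, again with 0 here. The other E-box, CATATG, was in 3.91%, with 0 here. Of the windows shown, that of Bcan was richer in CpG pairs, with 24, than those of Ncan (9) and Tnc (16). The median over all windows was 7. Among these genes Acan (31) and Ptprz1 (29) held more than Bcan. Vcan (12), Hapln1 (3), Tnr (3) and the other Tnc window (10) held fewer. A promoter was matched by symbol for 8 of the 9 genes, with 9 windows in all, and none for Cspg5.

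A value here is a MAS5 signal, a linear intensity of 1 probe set, so levels are compared between arrays and not between genes. The floor was 104.1 signal units, and where the dimmer array did not exceed it the fold is written as "at least", a lower bound. It is the highest of the 4 arrays' 95th percentiles of 84 probe sets for chemosensory receptors, genes not thought to be active in these cells. The percentile itself was 72.4 on iNSC_14F, 99.6 on iNSC_13F, 37.2 on NSC and 104.1 on MEF. A gene was called when the arrays were at least 4-fold apart with the brighter one above the floor. As a yardstick, 95% of the 9326 genes above the floor on both induced arrays differed by less than 2.32-fold between those arrays. It comes from 1 pair of arrays that are not replicates, so it does not measure the spread in comparisons with NSC or MEF. All 18 hybridization control probe sets, which read foreign transcripts added at the hybridization step, were dimmer on NSC. Their median was 1.84-fold higher on iNSC_14F, 2.05-fold higher on iNSC_13F and 1.85-fold higher on MEF than on NSC. Differences from NSC are therefore also given after scaling to these controls where that matters. This scaling moved the median log2 difference of all genes in NSC over MEF to 0.80, against -0.01, and left that of iNSC_14F over MEF at 0.11.

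The cell type labels were set against markers. All 8 markers of the neural stem cell list stood above the floor on iNSC_14F and NSC, 7 on iNSC_13F and 3 on MEF. Of 8 fibroblast markers, 7 were above the floor on MEF, 2 on iNSC_14F, 5 on iNSC_13F and 1 on NSC. The summed signal of the fibroblast markers was 558 on iNSC_14F, 2221 on iNSC_13F and 596 on NSC, against 144865 on MEF. The source label of all 4 samples names embryonic stem cells, and the 4 markers of those cells were below the floor on every array. So were the 4 hepatocyte markers and the 3 B lymphocyte markers with a probe set. In such bulk RNA, fewer cells that make a transcript and less transcript per cell cannot be told apart.

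Of the 25 probe sets, 15 were above the floor on at least 1 array, 4 on all arrays and 10 on none. By the brightest probe set of each gene, 7 of the 9 genes were above the floor somewhere. Tnr, a tenascin of oligodendrocytes and some neurons, and Hapln1, a link protein, were not. The single Tnr probe set read 18.3 on iNSC_14F, 41.1 on iNSC_13F, 86.2 on NSC and 1.70 on MEF. The NSC value lay above that array's own receptor percentile of 37.2 and below the common floor. The 4 Hapln1 probe sets lay between 2.32 and 56.1 on all arrays, so no level of Hapln1 was measurable.

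**Figure D1:**
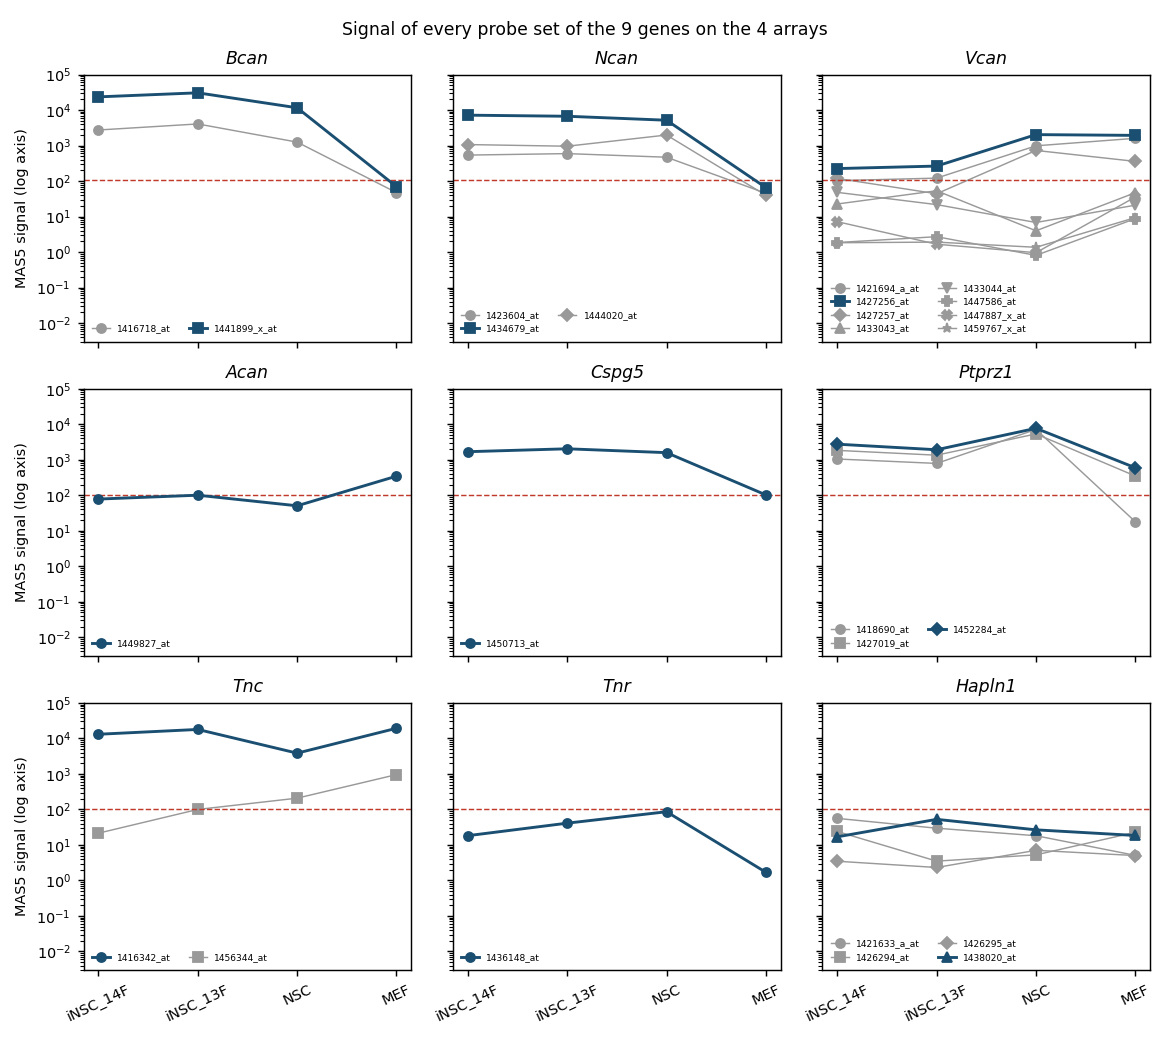
MAS5 signal (log axis) of each of the 25 probe sets on iNSC_14F, iNSC_13F, NSC and MEF, with a panel for each of the 9 genes. Dark lines are the brightest probe set of a gene, grey lines the others, the dashed line is the floor of 104.1, and lines only join the readings of 1 probe set; Bcan, Ncan and Cspg5 sit below the floor on MEF alone, while Vcan is dimmest on the induced arrays.

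Each neural array was first compared with the fibroblasts, to ask which of the matrix genes separate neural cells from MEF. Bcan, Ncan and Cspg5 were at least 4-fold higher on every neural array, all 3 as lower bounds because MEF lay below the floor. Ptprz1 was called higher on iNSC_14F and NSC and was 3.21-fold higher on iNSC_13F. Tnc was called lower on NSC, and Vcan on both induced arrays. These 3 comparisons share the MEF array. In NSC over MEF, 4 of the 9 genes were called higher and 1 lower, with 7 measured, where 5.94% of 11409 measured genes were called higher and 7.04% lower. In iNSC_13F over MEF the counts were 3 higher and 1 lower, beside 3.66% and 9.08% of 11713 genes. In iNSC_14F over MEF they were 4 higher and 1 lower, beside 4.46% and 7.84% of 11512 genes. The median log2 difference of the measured members was 3.69 for NSC, 1.68 for iNSC_13F and 2.21 for iNSC_14F, and that of all measured genes was -0.01, 0.09 and 0.11. Restricted to the 3 members with both arrays over the floor, these medians were 0.071, -0.11 and -0.56, since Bcan, Ncan, Cspg5 and Acan drop out.

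Bcan encodes brevican, a lectican of the central nervous system made by glia and their precursors. Its brightest probe set, 1441899_x_at, read 23491 on iNSC_14F, 30552 on iNSC_13F and 11577 on NSC, against 69.6 on MEF. The second, 1416718_at, read 2743 on iNSC_14F, 4060 on iNSC_13F and 1250 on NSC, against 47.3 on MEF. Every neural array was thus high and MEF was at background on both probe sets. By the brightest probe set iNSC_14F exceeded MEF at least 226-fold, iNSC_13F at least 293-fold and NSC at least 111-fold. By the other the bounds were 26.3-fold for iNSC_14F, 39.0-fold for iNSC_13F and 12.0-fold for NSC. Of 4 astrocyte markers, 2 were above the floor on iNSC_14F, 3 on iNSC_13F, 2 on NSC and 1 on MEF. Of 4 oligodendrocyte precursor markers 1 was above the floor on each induced array, 2 on NSC and 2 on MEF, with Sox10 and Gpr17 below the floor on every array. The part of such cells in the Bcan signal was not tested. Both induced arrays read higher than NSC, iNSC_14F by 2.03-fold and 2.19-fold and iNSC_13F by 2.64-fold and 3.25-fold on the 2 probe sets. Only the iNSC_13F values pass the yardstick of 2.32-fold. After scaling to the hybridization controls the log2 difference from NSC was 0.14 for iNSC_14F, against 1.02 before it, and 0.36 for iNSC_13F, against 1.40.

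Ncan encodes neurocan, a lectican of developing brain. Probe set 1434679_at read 7174 on iNSC_14F, 6683 on iNSC_13F and 5169 on NSC, against 65.3 on MEF. Probe set 1423604_at read 539 on iNSC_14F, 593 on iNSC_13F and 469 on NSC, against 45.3 on MEF. Probe set 1444020_at read 1066 on iNSC_14F, 958 on iNSC_13F and 1979 on NSC, against 39.7 on MEF. All 3 were high on the neural arrays only, and by the brightest the lower bounds of the difference from MEF were 68.9-fold for iNSC_14F, 64.2-fold for iNSC_13F and 49.7-fold for NSC. Against NSC the probe sets disagreed in direction. The first was 1.39-fold and 1.29-fold higher on iNSC_14F and iNSC_13F, and the last was 1.86-fold and 2.07-fold lower, all within the yardstick. After scaling to the hybridization controls the brightest probe set also turned, with log2 differences from NSC of -0.41 for iNSC_14F and -0.67 for iNSC_13F.

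Cspg5 encodes neuroglycan C, a membrane-bound chondroitin sulfate proteoglycan of neural cells with an EGF-like module. Its 1 probe set read 1685 on iNSC_14F, 2035 on iNSC_13F and 1584 on NSC, against 102.2 on MEF. The MEF value lay just under the floor. Against MEF the lower bounds were 16.2-fold for iNSC_14F, 19.6-fold for iNSC_13F and 15.2-fold for NSC. The induced arrays were 1.06-fold (iNSC_14F) and 1.28-fold (iNSC_13F) higher than NSC, inside the yardstick. With the hybridization controls as the scale these differences turned, to -0.79 and -0.68 in log2.

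Ptprz1 was high on all neural arrays and brightest on NSC. Probe set 1452284_at read 2745 on iNSC_14F, 1913 on iNSC_13F and 7682 on NSC, against 595 on MEF. Probe set 1427019_at read 1835 on iNSC_14F, 1344 on iNSC_13F and 5343 on NSC, against 348 on MEF. The third, 1418690_at, read 1049 on iNSC_14F, 789 on iNSC_13F and 7145 on NSC, against 18.0 on MEF. The order of the arrays was the same on all 3 probe sets, with NSC highest, then iNSC_14F, iNSC_13F and MEF. NSC was 12.9-fold and 15.3-fold above MEF on the first pair and at least 68.6-fold above it on 1418690_at, the probe set on which MEF was below the floor. On iNSC_14F the differences from MEF were 4.61-fold, 5.27-fold and at least 10.1-fold. On iNSC_13F they were 3.21-fold, 3.86-fold and at least 7.58-fold. The induced arrays were neighbours in this order, 1.43-fold apart by the brightest probe set.

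**Figure D2:**
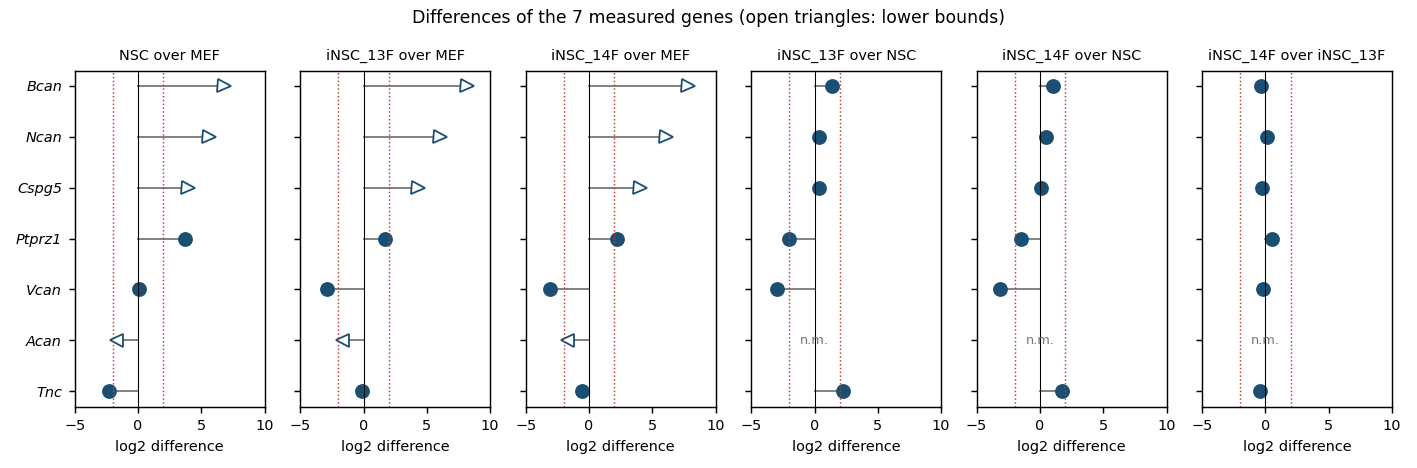
Log2 difference of the 7 genes that exceed the floor somewhere, in the 6 pairs of arrays, by each gene's brightest probe set. Filled points are measured on both arrays, open triangles are lower bounds, n.m. marks pairs with both arrays below the floor, and dotted lines mark 4-fold; Bcan, Ncan and Cspg5 stand far above MEF on all 3 neural arrays, and Vcan stands about 3 log2 units below NSC on both induced arrays.

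The induced arrays were then compared with NSC, to ask whether the matrix genes reached the level of the primary cells. Vcan was lower on both, Ptprz1 was lower on both with iNSC_13F past 4-fold, and Tnc was higher on both by its brighter probe set with iNSC_13F past 4-fold. Bcan, Ncan and Cspg5 were not called. In iNSC_13F over NSC, 1 of the 9 genes was called higher and 2 lower, with 6 measured, where 1.08% of 11141 measured genes were higher and 11.0% lower. In iNSC_14F over NSC the counts were 0 higher and 1 lower, beside 1.41% and 9.11% of 10770 genes. The median log2 difference of the measured members was 0.28 for iNSC_14F and 0.37 for iNSC_13F, beside 0.33 and 0.30 over all measured genes. Both comparisons share the NSC array. After scaling to the hybridization controls the members' median was -0.62 for iNSC_14F and -0.67 for iNSC_13F, beside -0.46 and -0.61 over all genes.

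Vcan encodes versican, a lectican made by many tissues including fibroblasts and neural progenitors. Probe set 1427256_at read 225 on iNSC_14F and 264 on iNSC_13F, against 2032 on NSC, and 1935 on MEF. Probe set 1421694_a_at read 103 on iNSC_14F and 121 on iNSC_13F, against 983 on NSC, and 1600 on MEF. Probe set 1427257_at read 119 on iNSC_14F and 43.9 on iNSC_13F, against 729 on NSC, and 358 on MEF. The induced arrays were lowest on all 3, below both NSC and MEF. The other 5 of the 8 Vcan probe sets were below the floor on every array. The brightest probe set was 9.04-fold lower on iNSC_14F and 7.68-fold lower on iNSC_13F than on NSC. On 1421694_a_at iNSC_14F was at least 9.45-fold and iNSC_13F 8.12-fold lower than NSC. On 1427257_at iNSC_14F was 6.15-fold lower, and iNSC_13F was below the floor. After scaling to the hybridization controls the log2 difference was -4.06 for iNSC_14F, against -3.18 before it, and -3.98 for iNSC_13F, against -2.94. Against MEF, iNSC_14F was 8.61-fold and iNSC_13F 7.32-fold lower by the brightest probe set. NSC and MEF were 1.05-fold apart on it, with NSC 1.63-fold lower on 1421694_a_at and 2.03-fold higher on 1427257_at, all inside the yardstick.

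Ptprz1 was 2.80-fold lower on iNSC_14F and 4.02-fold lower on iNSC_13F than on NSC by the brightest probe set. The iNSC_13F value lies at the edge of the 4-fold rule. Probe set 1427019_at gave 2.91-fold for iNSC_14F and 3.97-fold for iNSC_13F. Probe set 1418690_at gave 6.81-fold for iNSC_14F and 9.06-fold for iNSC_13F. All 3 probe sets went the same way on both arrays, past the yardstick each time. After scaling to the hybridization controls the log2 differences were -2.37 for iNSC_14F and -3.04 for iNSC_13F.

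Tnc encodes tenascin-C, a matrix glycoprotein of neural stem cell niches, activated fibroblasts and healing wounds. Its brighter probe set, 1416342_at, read 13114 on iNSC_14F, 17911 on iNSC_13F and 3851 on NSC, against 19327 on MEF. The induced arrays thus lay near MEF, iNSC_14F 1.47-fold and iNSC_13F 1.08-fold lower, while NSC was 5.02-fold lower than MEF. After scaling to the hybridization controls the log2 difference of NSC from MEF was -1.44, short of a call, against -2.33 before it. The summed fibroblast marker signal was 558 on iNSC_14F and 2221 on iNSC_13F, against 144865 on MEF. Of this, Twist1 read 54.7 on iNSC_14F and 1241 on iNSC_13F, against 1638 on MEF, and its relation to Tnc was not tested. Of the 7 measured fibroblast markers, 6 were called lower than MEF on iNSC_13F, all but Twist1, and 7 on iNSC_14F. Over all measured genes the shares called lower were 9.08% and 7.84%. Against NSC, iNSC_14F was 3.40-fold and iNSC_13F 4.65-fold higher. The dimmer probe set, 1456344_at, read 21.5 on iNSC_14F, 100.1 on iNSC_13F and 208 on NSC, against 958 on MEF. Both probe sets had NSC below MEF, by 4.61-fold on the dimmer one. They disagreed on the induced arrays, which on the dimmer one were below the floor, at least 9.20-fold lower than MEF and at least 2.00-fold lower than NSC. With the median of both probe sets the log2 differences from NSC were 0.38 for iNSC_14F and 0.61 for iNSC_13F, against 1.77 and 2.22 by the brighter one. With the brighter one scaled to the hybridization controls they were 0.89 and 1.18. The direction of Tnc between the induced cells and NSC therefore depends on the probe set, and why the probe sets differ was not tested.

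Acan encodes aggrecan, the main lectican of cartilage and a component of perineuronal nets. Its 1 probe set read 78.2 on iNSC_14F, 100.4 on iNSC_13F and 50.5 on NSC, all below the floor, against 345 on MEF. The neural arrays were at least 3.32-fold lower than MEF, a bound under the 4-fold of a call. Of 4 chondrocyte markers, 0 were above the floor on iNSC_14F, 1 on iNSC_13F and 1 on NSC, against 2 on MEF. Col2a1 (804) and Comp (143) were above it on MEF alone, while Col9a1 went the other way, with 340 on iNSC_13F and 143 on NSC, against 60.8 on MEF. Across the list, the summed signal of the list was 155 on iNSC_14F, 425 on iNSC_13F and 195 on NSC, against 1035 on MEF. The part of such cells in the Acan signal was not tested.

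Between the induced arrays none of the genes was called. In iNSC_14F over iNSC_13F, 0 of the 9 genes were called higher and 0 lower, with 6 measured, where 0.490% of 10817 measured genes were higher and 0.361% lower. The signed log2 differences lay between -0.45 for Tnc and 0.52 for Ptprz1, and their median was -0.25.

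The patterns over the 4 arrays were also set against those of 7409 other genes that varied at least 2-fold, left out if only a clone name was given, by the root mean square difference of floored log2 signals centred on each gene's mean. For Bcan the nearest were Olig1 (0.38), Bex2 (0.43) and Rfx4 (0.65), each high on the 3 neural arrays and below the floor on MEF. For Ncan they were Pantr1 (0.18), Timp4 (0.18) and Pou3f3 (0.18). For Cspg5 they were Ncald (0.13), Gprc5b (0.14) and Metrn (0.17). For Ptprz1 they were Iftap (0.13), Elovl2 (0.17) and Prxl2a (0.20), which also had their highest signal on NSC. For Vcan they were Dsel (0.094), Usp16 (0.10) and Agps (0.11), all at or near the floor on the induced arrays. Dsel read 91.7 on iNSC_14F and 71.5 on iNSC_13F, against 818 on NSC, and 774 on MEF. For Tnc, by its brighter probe set, they were Cds2 (0.047), Slc24a3 (0.075) and Tmbim1 (0.082). For Acan, above the floor on MEF alone, they were Vegfd, Ly75 and St3gal1, and such a match rests on 1 array. Among the members Ncan lay nearest to Cspg5 (0.81) and Bcan (0.82), and Bcan and Vcan were farthest apart (4.50). With 4 arrays such likeness is a description, and the floor limits how far a dim gene can fall on MEF.

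Genes that build the sugar chains of these proteoglycans were read as a list of chondroitin sulfate synthesis enzymes. Of 21 genes, 20 had a probe set. In NSC over MEF, 1 was called higher and 2 lower of 18 measured, beside 5.94% and 7.04% of all measured genes, with a median log2 difference of -0.61, or 0.05 with 1 called lower after scaling to the hybridization controls. Chst7, a sulfotransferase, read 4273 on iNSC_14F, 5827 on iNSC_13F and 3143 on NSC, against 562 on MEF. Over MEF it was 7.60-fold higher on iNSC_14F, 10.4-fold on iNSC_13F and 5.59-fold on NSC. Dse, an epimerase that turns chondroitin into dermatan sulfate, was at least 12.2-fold lower than on MEF for all 3 neural arrays. Its paralogue Dsel and the chain-starting enzyme Csgalnact2 were lower on both induced arrays than on NSC. Csgalnact2 read 103 on iNSC_14F and 97.0 on iNSC_13F, against 718 on NSC, a difference of at least 6.90-fold, and Dsel was at least 7.86-fold lower. These were the 2 genes of the list called lower in both comparisons with NSC, of 14 measured, and 0 were higher, a share near the 9.11% (iNSC_14F) and 11.0% (iNSC_13F) of all measured genes called lower. The list's medians against NSC were 0.45 on iNSC_14F and 0.87 on iNSC_13F, and -0.43 and -0.19 after scaling to the hybridization controls, so that their direction depends on the scaling.

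Genes of hyaluronan, the sugar polymer that lecticans bind, included several called lower than on MEF. Has2, a hyaluronan synthase, read 6.06 on iNSC_14F, 35.7 on iNSC_13F and 35.4 on NSC, against 1311 on MEF, at least 12.6-fold lower on each. Cd44, a hyaluronan receptor, read 2608 on iNSC_14F, 2689 on iNSC_13F and 2012 on NSC, against 11677 on MEF. It was 4.48-fold lower on iNSC_14F, 4.34-fold on iNSC_13F and 5.80-fold on NSC, where the call was lost (log2 -1.65) after scaling to the hybridization controls. Of 7 measured genes of this list, 4 were called lower and 0 higher in iNSC_14F over MEF, 3 and 0 in iNSC_13F over MEF, and 3 and 1 in NSC over MEF. Over all measured genes 7.84%, 9.08% and 7.04% were called lower in these comparisons. Under quantile normalization the first count was 3, without Hmmr. Cemip, a hyaluronan-degrading protein, separated the induced arrays by the 1 of its 3 probe sets that was measured in this pair. Its signal was 73.7 on iNSC_14F against 1404 on iNSC_13F, at least 13.5-fold lower. It read 73.2 on NSC and 2735 on MEF. Hmmr, a hyaluronan-binding protein of dividing cells, was 19.7-fold lower on iNSC_14F and 22.0-fold lower on iNSC_13F than on NSC, by its brightest probe set, which gave the largest difference of the 5. Over the 5 probe sets the log2 differences ran from -4.30 to -0.14 on iNSC_14F and from -4.46 to 0.41 on iNSC_13F. The list's median log2 difference from NSC was 0.10 on iNSC_14F and 0.69 on iNSC_13F, and -0.65 and -0.35 after scaling to the hybridization controls.

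Ligands and partners of Ptprz1 and Tnr were read from a list of 8 genes. Ptn, which encodes pleiotrophin, was bright on all arrays, with 26622 on iNSC_14F, 33998 on iNSC_13F and 25142 on NSC, against 13368 on MEF. Cntn1, a contactin that binds Ptprz1, read 186 on iNSC_14F and 91.1 on iNSC_13F, against 796 on NSC, and 33.9 on MEF. It was 4.27-fold lower on iNSC_14F and at least 7.64-fold lower on iNSC_13F than on NSC. It was the 1 gene of the list called in these comparisons, of 5 measured on iNSC_14F and 6 on iNSC_13F. Over all measured genes 9.11% and 11.0% were called lower. Under quantile normalization the iNSC_14F call was lost, at a log2 difference of -1.82. Mdk, the paralogue of Ptn, was lower than on MEF on all neural arrays, by 4.13-fold on iNSC_14F and at least 6.35-fold on iNSC_13F and NSC. The iNSC_14F call was lost under quantile normalization, at -1.88. Of 7 measured genes of the list, 0 were called higher and 1 lower than MEF on iNSC_14F. On iNSC_13F these counts were 1 and 2, and on NSC 2 and 1. Over all measured genes the shares were 4.46% and 7.84%, 3.66% and 9.08%, and 5.94% and 7.04%, in this order. Called higher were Cntn1 on NSC (log2 at least 2.93) and Nrcam on NSC (at least 2.85) and iNSC_13F (at least 2.01). Ncam1 was called lower on iNSC_13F (-2.29). Among the receptors for these proteoglycans and tenascins, Itgb1, the integrin beta-1 subunit, was 5.60-fold lower on iNSC_14F and 6.28-fold lower on iNSC_13F than on NSC. Ptprs, a receptor phosphatase that binds chondroitin sulfate, read 9875 on iNSC_14F and 10032 on iNSC_13F, against 4939 on NSC, and was not called. Of this list 2 of 10 measured genes were called lower in each comparison with NSC, Itgb1 and Egfr, and 1 was higher on iNSC_13F, the integrin subunit gene Itga9. These shares stand beside the 9.11% and 11.0% of all measured genes called lower on iNSC_14F and iNSC_13F. Scaled to the hybridization controls, 4 of 11 were called lower in each comparison and 0 higher, with Itga9 at a log2 difference of 1.87. Egfr, the receptor for EGF, went that way on 2 of 4 measured probe sets on iNSC_14F and 2 of 5 on iNSC_13F.

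Of the lectican-cleaving proteases, 4 of 7 genes were measured against MEF, and 2, 1 and 1 were called lower on iNSC_14F, iNSC_13F and NSC. These counts, and those of the lists that follow, stand beside 7.84%, 9.08% and 7.04% of all measured genes called lower than MEF. The shares called higher were 4.46%, 3.66% and 5.94%, with the arrays in the same order. The NSC count was 0 after scaling to the hybridization controls, with Adamts1 at a log2 difference of -1.20, and 2 under quantile normalization. Adamts5, an aggrecanase, read 67.9 on iNSC_14F and 86.1 on iNSC_13F, at least 14.2-fold lower than the 1480 on MEF, and 375 on NSC. Adamts9, another protease of this family, was called higher on NSC by its brightest probe set, with 738 against 105.5 on MEF, a log2 difference of 2.81. Its other measured probe set gave 0.13. Other proteoglycans were read for comparison. Of 7 measured small leucine-rich proteoglycans of connective tissue, 4 were called lower than MEF on each neural array and 0 higher, with a median of -3.62 each time. In NSC over MEF the other 3, Prelp, Dcn and Podn, had log2 differences, as bounds, between -1.24 and -0.59. The 4 called genes were Bgn, Aspn, Ogn and Fmod, and Bgn, which encodes biglycan, was at least 341-fold lower on all 3 neural arrays. In the list of heparan sulfate and other membrane proteoglycans, of 12 measured genes 1 was called higher and 2 lower in iNSC_14F over MEF, 1 and 3 in iNSC_13F over MEF, and 0 and 4 in NSC over MEF. On the scale of the hybridization controls the last counts were 2 higher and 2 lower, and the list's median was -0.44, against -1.33 before it. Agrn, which encodes agrin, was 7.39-fold and 5.37-fold higher on iNSC_14F and iNSC_13F than on MEF. Gpc4 was 6.82-fold, 10.1-fold and 8.48-fold lower on iNSC_14F, iNSC_13F and NSC than on MEF, and Cspg4 was 4.32-fold, 11.1-fold and 6.29-fold lower, the last being lost as a call (log2 -1.76) after that scaling. Of the other link proteins and tenascins, Hapln4 read 236 on iNSC_14F and 121 on iNSC_13F and was below the floor on NSC and MEF. At most 2 of the 5 genes were measured in a comparison, and 0 were called in any. Hapln2, Tnxb and Tnn were below the floor on every array, so they could not be called.

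**Figure D3:**
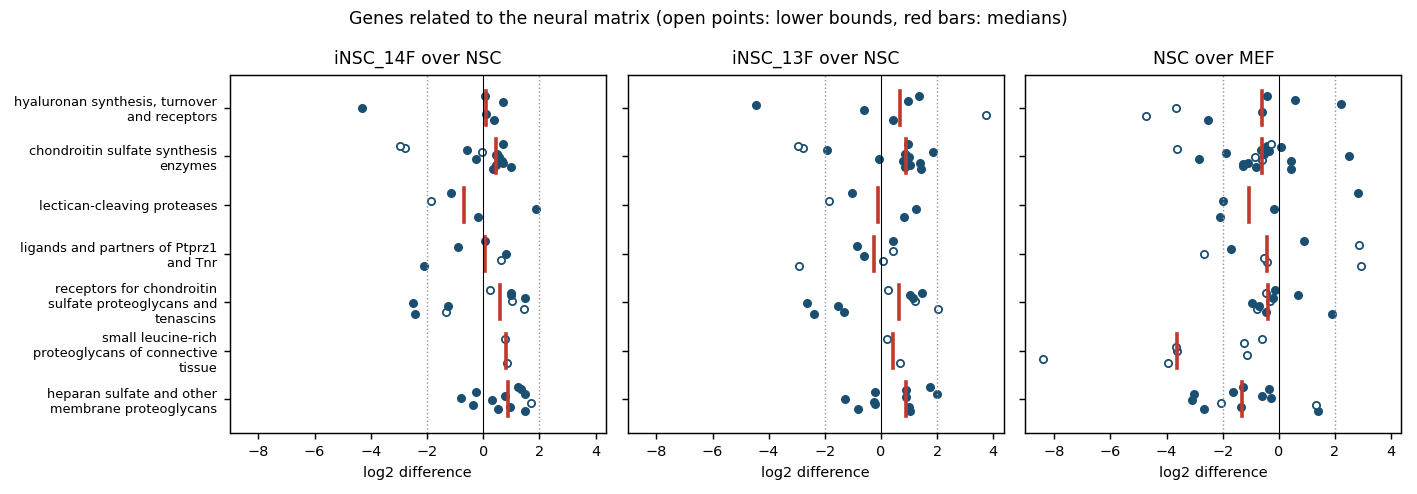
Log2 difference of each measured gene of 7 related lists in iNSC_14F over NSC, iNSC_13F over NSC and NSC over MEF. Filled points are measured on both arrays, open points are lower bounds, red bars are list medians and dotted lines mark 4-fold; the small leucine-rich proteoglycans run from -8.41 to -0.59 in NSC over MEF with a median of -3.62, and 2 enzymes of chondroitin sulfate synthesis sit below -2 in both comparisons with NSC.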

How the data were processed

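Total RNA of 4 mouse cell samples was labelled with biotin and hybridised to 1-colour Affymetrix arrays, per the labels' protocols. Samples were grouped by the cell type labels. The deposited values are linear intensities, 1 signal per probe set, made with MAS5 per the submitters' processing notes. The sources used here do not give its settings. Each array had a 2% trimmed mean of 500, so no scaling was added. The number of arrays, 1 per group, limits the precision.

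Gene names came from the platform annotation, updated by gene ID with the GRCm38.p6 gene table. Of 45101 probe sets, 34945 had 1 gene (34754 matched by ID), 932 several and 9160 none, beside 64 controls. Each gene was read from the probe set with the highest mean log2 signal. Values below the floor were set to it before log2. Calls followed a rule of size with no test. A check on simulated data shifted only genes far above the floor, by amounts away from 4-fold. It therefore does not cover calls near the floor or near 4-fold. Every probe set of the members could be named, up to 4 called genes a list in each comparison, and the 3 nearest patterns of each member. Ptn, Ptprs and Hapln4 were named after their values were seen. Members, lists and the naming rule were chosen with earlier results of these data known. Settings tried instead were quantile normalization, scaling to hybridization controls, other floors, a pseudocount of 16, other choices of probe set, genes above the floor on both arrays and 2-fold calls. A planned protein comparison was not run. Python 3.11.15, pandas 2.3.3 and scipy 1.17.1 were used.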

Additional observations from a re-analysis of the deposited data

How the results depend on the processing

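Of 18 calls of single genes over the 6 comparisons, 18 were still made under quantile normalization, with the floor at the 75th or 99th percentile, with each array's own floor and without probe sets ending in _s_at or _x_at. With scaling to hybridization controls 16 were, with a pseudocount of 16 and no floor 17, with the median of probe sets 13 (4 could not be measured, all Vcan) and with only genes that exceed the floor on both arrays 9 (the bounds against MEF drop out by construction). No call changed sign under any of them. The calls lost under scaling to the controls were both Tnc, with log2 differences of -1.44 in NSC over MEF and 1.18 in iNSC_13F over NSC. Counts and medians that moved follow.

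In NSC over MEF, members called higher were 1 above the floor on both. Members called lower were 0 with scaling to controls, and 2 with the floor at the 75th percentile, each array's own floor, the pseudocount or 2-fold calls. The median log2 difference was 2.77 with scaling to controls, 2.23 at the 75th percentile, 1.88 with each array's own floor and 0.071 above the floor on both. In iNSC_13F over MEF, members higher were 0 above the floor on both, members lower were 0 with the median of probe sets and 2 at 2-fold, and the median was 0.87 at the 75th percentile, 2.57 with the median of probe sets and -0.11 above the floor on both. In iNSC_14F over MEF, members higher were 1 above the floor on both, members lower were 2 at the 75th percentile, with each array's own floor and at 2-fold and 0 with the median of probe sets, and the median was 2.88 with the median of probe sets and -0.56 above the floor on both. In iNSC_13F over NSC, members higher were 0 with scaling to controls and with the median of probe sets and 2 at 2-fold, members lower were 1 with the pseudocount and with the median of probe sets, and the median was -0.67 with scaling to controls. In iNSC_14F over NSC, members higher were 2 at 2-fold, members lower were 2 with scaling to controls and at 2-fold and 0 with the median of probe sets, and the median was -0.62 with scaling to controls. Beyond what an alternative's construction shows, the cause was not tested. No paired analysis was possible because each group has 1 array. Signals near the floor limit Tnr, Hapln1 and Acan.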
